A study of Mus musculus with 28 samples.

Results

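The vacuolar proton ATPase (V-ATPase) was followed through mIMCD-3 cells, mouse kidney epithelial cells of inner medullary collecting duct origin. Its members were taken as every row of the expression tables whose symbol begins with Atp6v or Atp6ap, which gave 27 of 45706 genes. Of these, 25 encode subunits or accessory proteins, and 2 do not (Atp6v0c-ps2, a processed pseudogene, and Atp6v1fnb, a neighbour of Atp6v1f). The 25 were classed by known tissue range into 16 ubiquitous forms, 5 forms known from intercalated cells and 4 other restricted forms. Tcirg1, which encodes the a3 subunit under another symbol, is given beside the other a subunits and is not counted among the members.

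The V-ATPase is a rotary pump that uses ATP to move protons into endosomes, lysosomes and secretory vesicles, or out of the cell. Its peripheral V1 sector (subunits A to H) hydrolyses ATP, and its membrane V0 sector (subunits a, c, c″, d and e) carries the protons. In the collecting duct, acid-secreting intercalated cells place the pump in the plasma membrane with forms of the B, C, G, a and d subunits that most cells lack. Loss of the human B1 or a4 subunit causes distal renal tubular acidosis, in which the kidney fails to acidify urine.

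RNA was sequenced from 28 libraries, 4 from each of 7 groups of wild-type (WT) cells that had received no experimental treatment. Polyclonal WT is the parental population, monoclonal WT5 is a single-cell clone of it, and subclones 1 to 5 were grown from single sorted cells of WT5. All cells were grown in DMEM:F12 with serum. Each clonal line is 1 clone, and the sources call the 4 libraries of a line both biological and technical replicates, so p-values measure the spread between these libraries. Expression is in TPM (transcripts scaled to a fixed total per library), which is per transcript length and can be compared between genes. Since depth cannot be read from TPM, no counting error can be given. Polyclonal cells were sequenced with short single-end reads and WT5 with longer paired-end reads at another time, so sequencing batch and cell line cannot be told apart. The subclones are in a table of their own, and a difference that all of them share against WT5 cannot be told apart from a difference between tables. Genes with TPM above 0 numbered between 18681 and 19272 in a polyclonal library, between 16318 and 16536 in a WT5 library and between 16270 and 17004 in a subclone library.

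All 16 ubiquitous members were expressed in every library. In polyclonal cells their mean TPM ran from 17.1 ± 0.71 (SD, n = 4) for Atp6v0a2 to 740.4 ± 46 for Atp6v0c, the proteolipid that forms the rotor ring. The 8 ubiquitous V1 genes summed to 1410.0 ± 60.0 TPM in polyclonal cells and 1399 ± 25.9 TPM in WT5. The 6 ubiquitous V0 genes summed to 1344 ± 77.3 TPM in polyclonal cells and 1307 ± 30.1 TPM in WT5. The ranges of libraries overlapped between the 2 lines for both sums. Over the subclones, mean sums lay between 1362 and 1487 TPM for V1 and between 1386 and 1472 TPM for V0.

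The forms known from intercalated cells were all below 2 TPM. Atp6v1b1, the B subunit of intercalated cells, had 1.49, 1.79, 1.37 and 0.65 TPM in the polyclonal libraries. In WT5 it had 0.07 TPM in 1 library and was listed at 0 in the other 3. In the 20 subclone libraries it was listed at 0 or reached at most 0.07 TPM, and all 4 libraries of subclone 4 were at 0. The polyclonal libraries were above every other library. As zeros kept the gene out of the main test, it was compared after adding a pseudocount of 0.1 to TPM, and WT5 was lower by a z-score difference of -0.81 (limma, adjusted p = 8.69e-05). With that pseudocount 13413 of 23738 genes passed, 4797 of them lower in WT5. In bulk RNA, fewer cells that express a gene and less RNA per cell cannot be told apart. Neither can be told apart here from the differing reads and sequencing times of the 2 lines. Its paralog Atp6v1b2, the B subunit of most cells, had 117, 121, 127 and 116 TPM in the polyclonal libraries and between 71.0 and 97.8 TPM in the subclone libraries. Atp6v1b1 was thus 1.08% ± 0.39 of B subunit TPM in polyclonal cells and at most 0.088% in any WT5 library.

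Atp6v1c2, the restricted C subunit, had 0.39, 0.65, 1.06 and 1.65 TPM in polyclonal libraries and 0.04, 0.19, 0.65 and 0 TPM in WT5 libraries. These libraries overlapped, and with the pseudocount the z-score difference was -0.41 (limma, adjusted p = 0.0688). In the subclone libraries it ranged from 0.02 to 0.35 TPM. Atp6v1c1, the C subunit of most cells, made up at least 98.7% of C subunit TPM in every library. Atp6v1g3, the G subunit of kidney, was listed at 0 in all 28 libraries. Atp6v1g1 carried most of the G subunit TPM, with means of 278 TPM in polyclonal cells and 248 TPM in WT5 and a range of 239.7 to 297 TPM over the subclone libraries. Atp6v1g2, best known from neurons, made up between 0.67% and 1.12% of G subunit TPM by group means. Atp6v0d2, the d subunit of kidney and bone-resorbing cells, was above 0 in 5 of 28 libraries and reached 0.06 TPM. Atp6v0d1, its paralog in most cells, had 142, 149.9, 146 and 134 TPM in polyclonal libraries and between 89.5 and 133 TPM in the subclone libraries.

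Atp6v0a4 differed from the other intercalated-cell forms in that it was above 0 in every library. It had 0.97, 0.47, 0.83 and 0.54 TPM in polyclonal cells and 0.50, 0.42, 0.51 and 0.47 TPM in WT5. These libraries overlapped, and the z-score difference of -0.25 ± 0.072 (SE) missed the threshold (limma, adjusted p = 0.0142). Among a subunits it held between 0.32% and 0.92% of summed TPM by group means. Tcirg1 held the largest share of a subunit TPM, from 42.6% ± 3.2 in WT5 to 52.3% ± 2.4 in subclone 5. Atp6v0a1 held 35.6% ± 3.0 in polyclonal cells and 30.2% ± 1.9 in WT5. Atp6v0a2, a form of the Golgi and endosomes, held 12.9% ± 1.0 in polyclonal cells, 26.8% ± 2.4 in WT5 and between 17.6% and 20.6% in the subclones. Over the subclone libraries Tcirg1 ranged from 56.5 to 119 TPM, Atp6v0a1 from 39.3 to 67.9 TPM and Atp6v0a2 from 24.2 to 37.7 TPM.

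Of the remaining members, Atp6v1e2, a form of the testis, and Atp6ap1l were listed at 0 in all libraries. Atp6v1fnb was above 0 in 5 libraries and reached 0.13 TPM. Atp6v0e2, the restricted e subunit, was 20.9% ± 0.59 of e subunit TPM in polyclonal cells and 12.5% ± 0.26 in WT5. Its share in the subclones lay between 10.4% and 11.6% by group means.

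**Figure D1:**
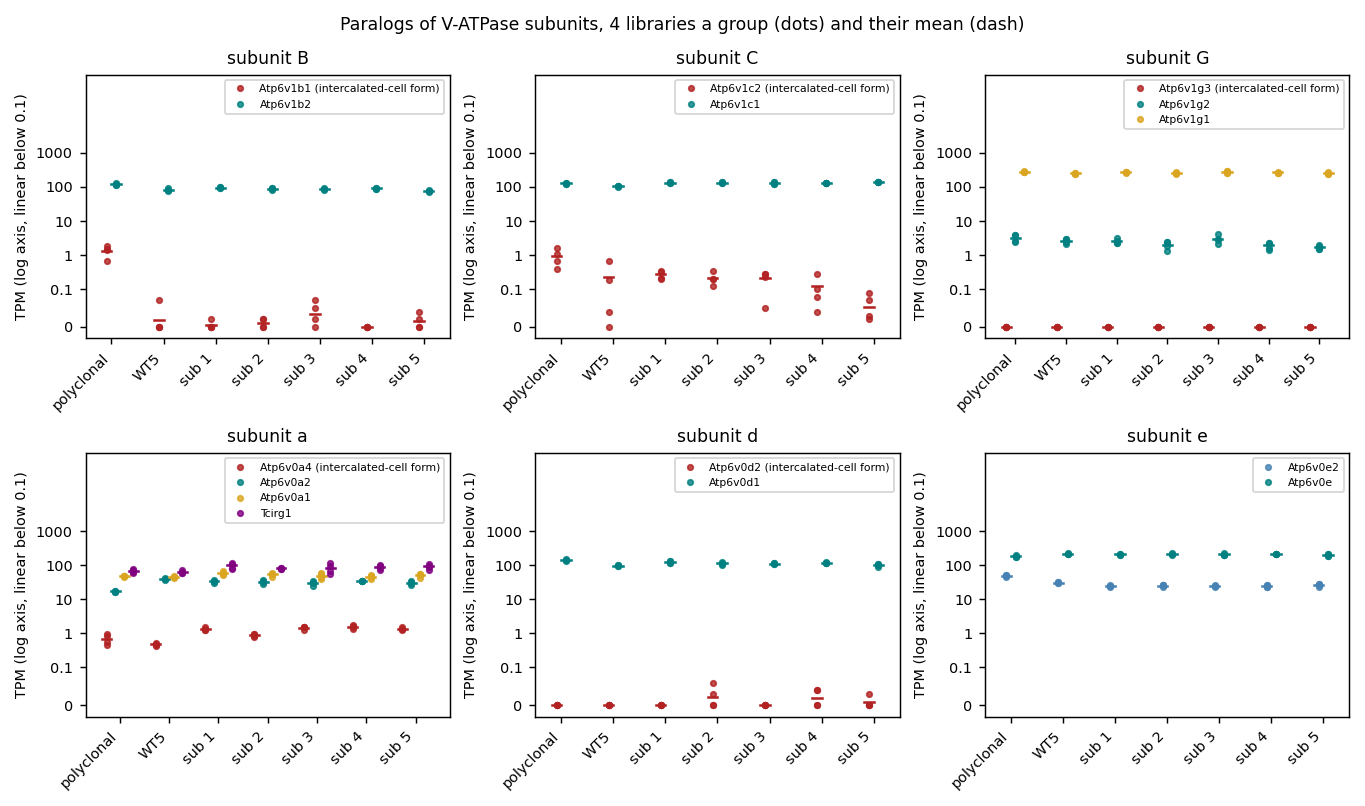
TPM of the paralogs of the B, C, G, a, d and e subunits in polyclonal, WT5 and subclone (sub) libraries, on a log axis that is linear below 0.1. Dots are libraries, dashes are means of 4, and intercalated-cell forms are red. Atp6v1b1 lies between 0.65 and 1.79 TPM in polyclonal cells and at or below 0.07 TPM elsewhere.

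The intercalated-cell markers were low alongside these forms. Of 18 markers, 3 had a mean of at least 1 TPM in each group (Car2, Car12 and Tfcp2l1), and between 7 and 9 were at 0 in all libraries of a group. Foxi1, the forkhead factor that drives the intercalated-cell programme, was listed at 0 in every library. The markers summed to between 37.1 and 42.1 TPM in polyclonal libraries, between 40.2 and 44.6 TPM in WT5 and between 51.1 and 78.8 TPM in the subclones. Of the 4 that could be tested between WT5 and polyclonal cells, 0 passed the test, where 65.5% of all genes did. Among the 5 subclones, 3 of the 4 tested passed the test described below, where 24.6% of all genes did. The part of intercalated cells in the levels of Atp6v1b1 and Atp6v0a4 was not tested. Against the label, Aqp2, the water channel of principal cells, was at 0 in every library, and Avpr2, the vasopressin receptor, had 10.6 ± 0.58 TPM in polyclonal cells and 0.060 ± 0.074 TPM in WT5. The 12 principal and inner medullary cell markers summed to between 31.2 and 33.8 TPM in polyclonal libraries, between 10.8 and 11.5 TPM in WT5 and between 8.94 and 25.8 TPM in the subclones. Of the 5 tested, 4 were lower in WT5 (among them Avpr2, Gata3 and Scnn1g) and Hsd11b2 was higher, where 30.9% of all genes tested were lower and 34.5% higher. The 15 markers of other kidney and bone-resorbing cells summed to between 1.64 and 2.02 TPM in polyclonal libraries, between 7.01 and 8.05 TPM in WT5 and between 7.0 and 23.0 TPM in the subclones. All 3 that were tested were higher in WT5 (Umod, Cubn and Lrp2), against the same 34.5% of all genes. Cubn had 0.0125 ± 0.005 TPM in polyclonal cells, near the lowest value above 0 of 0.01, and 0.29 ± 0.021 TPM in WT5. Of those not tested, Pecam1 went the other way, with 0.22 ± 0.078 TPM in polyclonal cells and 0.0175 ± 0.035 TPM in WT5. The others had means below 0.1 TPM in both lines.

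Promoter sequences of RefSeq on GRCm38.p6 were matched for 19 of the 27 members, as windows of 300 bases around 22 start sites. They were searched on both strands for TGTTTAC, a core of forkhead sites, and for TCACGTGA, the core of the CLEAR element that MiT/TFE factors bind at lysosomal genes. The forkhead core was found in 1 of the 22 windows, that of Atp6v1b1, and in 3.65% of 32851 promoters. The CLEAR core, which contains the E-box CACGTG, was found in 3 windows, those of Atp6v0d1, Atp6v1a and Atp6v0e, and in 0.974% of promoters. E-boxes were found in the same 3 windows and in that of Atp6v0b, which is not shown, and in 7.15% of promoters. The windows with a forkhead or CLEAR core are shown, with that core in capitals and each sequence on the strand of its gene. Atp6v1b1 lies at chr6:83742767-83743066 (+), Atp6v0d1 at chr8:105566015-105566314 (-), Atp6v1a at chr16:44139210-44139509 (-) and Atp6v0e at chr17:26676146-26676445 (+).
Atp6v1b1: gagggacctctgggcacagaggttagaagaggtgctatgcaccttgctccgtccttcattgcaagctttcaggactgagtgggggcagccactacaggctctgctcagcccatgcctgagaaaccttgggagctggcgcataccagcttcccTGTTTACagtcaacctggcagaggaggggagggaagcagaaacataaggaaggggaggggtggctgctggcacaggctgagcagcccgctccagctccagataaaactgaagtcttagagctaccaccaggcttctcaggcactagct
Atp6v0d1: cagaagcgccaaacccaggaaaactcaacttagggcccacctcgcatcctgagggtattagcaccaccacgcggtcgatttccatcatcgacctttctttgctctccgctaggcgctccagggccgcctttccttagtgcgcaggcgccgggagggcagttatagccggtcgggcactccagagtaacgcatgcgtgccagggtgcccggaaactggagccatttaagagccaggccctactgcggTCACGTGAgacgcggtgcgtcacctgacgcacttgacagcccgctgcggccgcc
Atp6v1a: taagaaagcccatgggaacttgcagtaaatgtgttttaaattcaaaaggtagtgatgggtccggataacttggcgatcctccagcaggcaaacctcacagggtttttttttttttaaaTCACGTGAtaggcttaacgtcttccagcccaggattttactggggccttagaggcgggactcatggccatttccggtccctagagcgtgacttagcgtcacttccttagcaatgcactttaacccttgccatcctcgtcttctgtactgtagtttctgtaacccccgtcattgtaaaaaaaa
Atp6v0e: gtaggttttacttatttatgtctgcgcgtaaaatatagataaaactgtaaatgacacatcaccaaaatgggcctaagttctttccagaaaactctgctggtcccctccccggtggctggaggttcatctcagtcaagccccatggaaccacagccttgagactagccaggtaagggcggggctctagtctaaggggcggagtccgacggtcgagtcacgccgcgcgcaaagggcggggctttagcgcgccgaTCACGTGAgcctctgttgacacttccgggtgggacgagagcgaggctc
The windows of Atp6v0a4, Atp6v1c2 and Atp6v1g3, also intercalated-cell forms, held no forkhead core. A single window among 22 is near the share of 3.65% over all promoters. Whether the site has a part in the level of Atp6v1b1 was not tested. Of the 3 genes with a CLEAR core, Atp6v0d1 was lower in WT5 than in polyclonal cells, and Atp6v1a and Atp6v0e did not pass on z-scores. Without z-scores Atp6v0e was higher by a log2 difference of 0.236 (limma, adjusted p = 0.00223). The median over all genes tested was 0.244 on that scale.

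The comparison of WT5 with polyclonal cells asked how much a single-cell clone differs from its parental population. For the test, log2(TPM) was z-score transformed within each library, so a z-score of 1 is 1 SD of log2(TPM) over 13723 genes, those above 0 in each of the 8 libraries. Without z-scores the median log2 difference over these genes was 0.24, and the log2 differences given here are to be read against it. At an adjusted p below 0.01 (limma), 16 of 20 members tested passed, 4 higher and 12 lower in WT5. Over all genes tested 65.5% passed, 34.5% higher and 30.9% lower. The median z-score difference was -0.13 over the members and 0.01 over all genes, and the median log2 difference was -0.21 over the members. The study's further requirement of a z-score difference above 1 was met by 1 member, Atp6v0c-ps2, and by 5.43% of all genes. Of the 16 calls, 12 were also made on log2(TPM) without z-scores, and all 16 kept their direction there.

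Atp6v0a2 showed the largest rise, with 16.6, 16.5, 17.6 and 17.9 TPM in polyclonal libraries and 40.0, 37.4, 38.6 and 43.4 TPM in WT5. Its log2 difference was 1.22 ± 0.058 (SE), and the z-score difference was 0.32 (limma, adjusted p = 2.43e-06). Every WT5 library was above every polyclonal library. Atp6v0b, which encodes the c″ proteolipid, had 188, 234, 226 and 196 TPM in polyclonal libraries and 358, 338, 292 and 317 TPM in WT5. Its log2 difference was 0.63 ± 0.094 (limma on z-scores, adjusted p = 0.00209). Atp6ap1, the Ac45 accessory protein, had 104, 113, 112 and 109 TPM in polyclonal libraries and 149.4, 148, 159.7 and 152 TPM in WT5, without overlap. Its log2 difference was 0.48 ± 0.047 (limma on z-scores, adjusted p = 3.41e-04). Atp6v1f, a stalk subunit, rose from 322, 364, 351 and 307 TPM to 458, 459.9, 424 and 436 TPM, also without overlap. Its log2 difference was 0.41 ± 0.064 (limma on z-scores, adjusted p = 0.00503), and the call was lost when any of 5 single libraries was left out (adjusted p up to 0.0310). These were WT5 replicates 1, 2 and 4 and polyclonal replicates 1 and 4.

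Among subunit genes in the main test, which leaves out Atp6v1b1, Atp6v0e2 fell most. It had 46.8, 50.4, 53.1 and 45.5 TPM in polyclonal libraries and 31.9, 31.0, 32.0 and 29.7 TPM in WT5. Its log2 difference was -0.65 ± 0.060 (limma on z-scores, adjusted p = 2.49e-06), and the libraries did not overlap. Atp6ap2, the prorenin receptor and an assembly partner of the pump, had 111, 108, 114 and 103 TPM in polyclonal libraries and 73.9, 73.4, 75.3 and 73.1 TPM in WT5. Its log2 difference was -0.56 ± 0.044 (limma on z-scores, adjusted p = 6.53e-07). The WT5 libraries were all below the polyclonal ones and lay close together. Atp6v0d1 fell from the polyclonal values given above to 95.8, 101, 96.8 and 100 TPM, a log2 difference of -0.54 ± 0.047 (limma on z-scores, adjusted p = 1.53e-06). Atp6v1b2 fell to 79.5, 78.0, 81.3 and 95.7 TPM, a log2 difference of -0.53 ± 0.073 (limma on z-scores, adjusted p = 2.88e-05). For both genes every WT5 library was below every polyclonal library. Atp6v1h, the subunit that couples and regulates V1, fell to a similar extent (log2 difference -0.45 ± 0.063).

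Smaller falls passed for Atp6v0c, Atp6v1c1, Atp6v1g1, Atp6v1d, Atp6v0a1 and Atp6v1e1. Atp6v1c1 had 127, 126, 132 and 121 TPM in polyclonal libraries and 105, 105, 102 and 108 TPM in WT5, a log2 difference of -0.27. Atp6v1g1 had 273, 275, 296 and 270.2 TPM in polyclonal libraries and 237, 253, 246 and 257 TPM in WT5, a log2 difference of -0.16. For both, the WT5 libraries were below the polyclonal ones. Atp6v0a1 had 47.1, 44.6, 47.6 and 49.1 TPM in polyclonal libraries and 46.6, 44.0, 47.4 and 42.2 TPM in WT5, which overlapped. Its call (limma on z-scores, adjusted p = 0.00273) was not made without z-scores and was lost without WT5 replicate 2 (adjusted p = 0.0105). Atp6v1e1, a stalk subunit, had a mean of 203 TPM in both lines and passed only on the z-score scale, where its difference was -0.06 (limma, adjusted p = 0.00422). That call was lost without polyclonal replicate 2 or 4 (adjusted p up to 0.0143). Atp6v1d and Atp6v1g1 also did not pass without z-scores (limma, adjusted p = 0.0745 and 0.0136). The members tested that did not pass were Atp6v0e, Atp6v1a, Atp6v1g2 and Atp6v0a4. Tcirg1 did not pass either, with means of 67.9 ± 8.6 TPM in polyclonal cells and 63.6 ± 6.7 TPM in WT5.

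**Figure D2:**
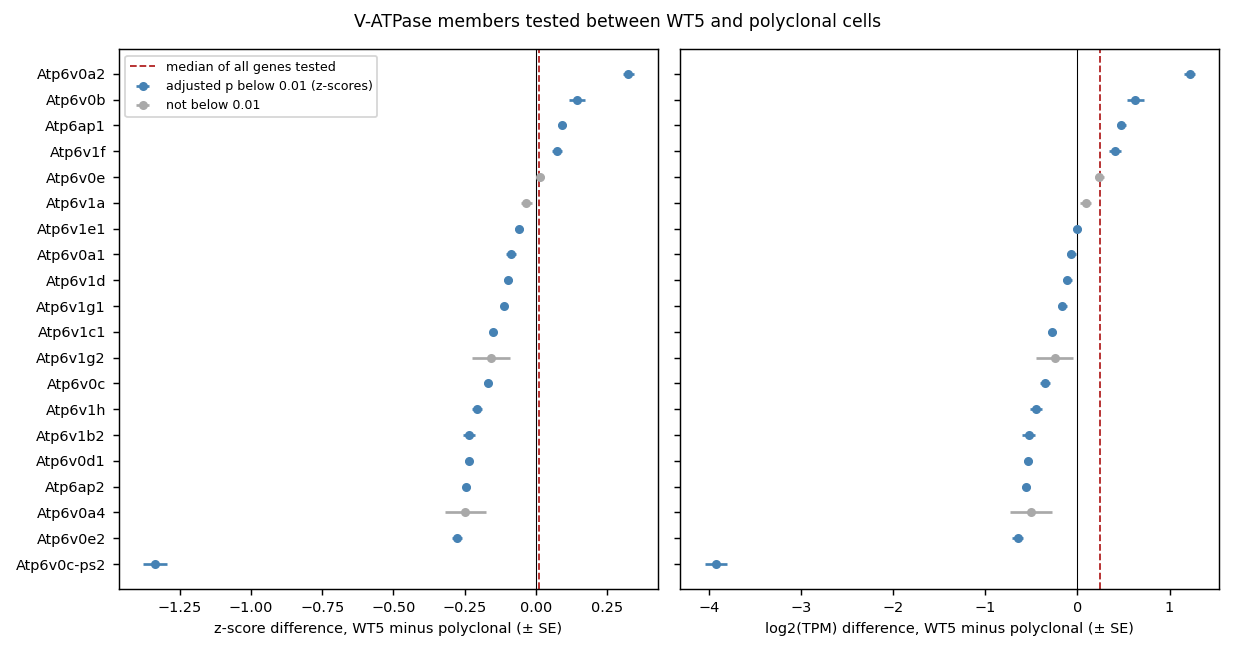
Difference between WT5 and polyclonal cells for the 20 members tested, in z-score (left) and log2(TPM) (right), with bars of ± SE and 4 libraries a group. Blue points passed at adjusted p below 0.01 on z-scores, and the dashed line is the median of all 13723 genes tested, 0.01 in z-score and 0.24 in log2(TPM). Most ubiquitous subunits lie left of that line, and Atp6v0c-ps2 lies farthest left at a log2 difference of -3.93.

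Of the 20 members in the main test, the pseudogene Atp6v0c-ps2 had the largest difference. It had 78.7, 85.8, 88.7 and 72.7 TPM in polyclonal libraries, 5.90, 5.10, 4.34 and 6.25 TPM in WT5 and between 7.10 and 13.97 TPM in the subclones. The log2 difference between WT5 and polyclonal cells was -3.93 ± 0.12 (limma on z-scores, adjusted p = 9.82e-08). This pseudogene is an intronless copy of the 465 coding bases of Atp6v0c, at chr6:37806086-37806550 on GRCm38, while Atp6v0c lies at chr17:24163866-24169702. The 2 sequences differ at 1 base and are 99.8% identical. Their 100 bases around that difference are shown because reads from the coding bases that do not cross it have the same sequence in both genes. The difference is in capitals, and positions 62 to 161 are counted from 1 at the first coding base.
Atp6v0c: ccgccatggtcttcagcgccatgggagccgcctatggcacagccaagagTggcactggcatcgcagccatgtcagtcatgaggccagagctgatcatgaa
Atp6v0c-ps2: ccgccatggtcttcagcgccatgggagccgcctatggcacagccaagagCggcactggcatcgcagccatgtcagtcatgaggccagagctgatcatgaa
Of the 416 stretches of 50 bases in the coding sequence, 366 are the same in both. Both values are therefore uncertain, because they depend on how the estimation divided shared reads. The reads of polyclonal cells and WT5 also differed in length and pairing, which cannot be told apart from the lines. Atp6v0c itself had 684, 757, 792 and 728 TPM in polyclonal libraries and 581, 573, 583 and 582 TPM in WT5, a log2 difference of -0.35 ± 0.052. The sum of gene and pseudogene was 822 ± 51.2 TPM in polyclonal cells and 585 ± 5.0 TPM in WT5, and its libraries did not overlap. A like case is Atp6v1g1, with 19.2% of its stretches of 50 bases also in the predicted gene Gm13453, which had 26.8 TPM in polyclonal cells and 1.94 TPM in WT5. The other members shared at most 2.86% of their stretches with another gene.

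Genes that work with the pump were compared between the same libraries. Of 18 entries for assembly factors and regulators, 15 were tested, and 5 were higher and 4 lower in WT5. Dmxl2, a subunit of the complex that joins V1 to V0, rose by 1.61 on the log2 scale, and Ncoa7 and Ccdc92 rose by 1.10 and 1.05. Vma21, a chaperone of V0 assembly, fell by 0.50, Tmem9 fell by 0.44 and Tldc1 fell by 0.21. Of 7 entries for chloride-proton exchangers of endosomes and lysosomes, 6 were tested, and Clcn6, Clcn7 and Clcn5 were higher and Clcn3 and Ostm1 lower. Clcn7, the lysosomal exchanger, had 21.1 ± 1.8 TPM in polyclonal cells and 40.7 ± 1.4 TPM in WT5, while its partner Ostm1 had 31.7 ± 0.81 and 22.8 ± 1.1 TPM. Of 13 genes of the Ragulator and mTORC1 docking machinery, which meets the pump at the lysosome, 12 were tested, and 1 was higher (Lamtor4) and 6 lower (among them Slc38a9, Fnip2 and Flcn). Among the MiT/TFE factors, 3 of 4 were tested, and Mitf and Tfe3 were higher, with Mitf at 0.46 ± 0.043 TPM in WT5. Of 28 lysosomal hydrolases and membrane proteins, all tested, 4 were higher (among them Npc1, Ctsa and Sgsh) and 16 lower (among them Ctsf, Cln3 and Smpd1). The median log2 difference was -0.05 over that lysosomal list and 0.16 over the assembly factors, against 0.24 over all genes. It was 0.55 over the exchangers, 0.47 over the MiT/TFE factors and 0.01 over the Ragulator and docking genes. The counts of these lists are to be read against all genes tested, of which 65.5% passed, 34.5% higher and 30.9% lower.

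Each subclone was compared with WT5, the clone it was grown from. The limit given above on differences that all subclones share holds here, so the counts cannot be read as drift alone. The 5 comparisons share the WT5 libraries, so their values are given side by side and are not independent. At an adjusted p below 0.01 (limma on z-scores over 13860 genes), 10 of 20 members passed in subclone 1, 9 higher and 1 lower. Over all genes 26.3% passed there, 12.7% higher and 13.6% lower. In subclone 2, 10 members passed, 9 higher and 1 lower, against 26.0% of all genes, 13.4% higher and 12.6% lower. In subclone 3, 7 members passed, 6 higher and 1 lower, against 19.5%, 8.65% higher and 10.9% lower. In subclone 4, 12 members passed, 10 higher and 2 lower, against 37.3%, 18.2% higher and 19.2% lower. In subclone 5, 10 members passed, 9 higher and 1 lower, against 21.9%, 10.2% higher and 11.7% lower. The study's further requirement of a z-score difference above 1 left between 20 and 28 of all genes in a comparison. With that requirement, in an unequal-variance test, the paper described the subclones and WT5 as highly similar. The median z-score difference over the members was between 0.07 and 0.10 in the 5 comparisons, and the median over all genes was close to 0 in each. Leaving out WT5 replicate 2 left 6 calls in subclone 1, and leaving out WT5 replicate 1, 2 or 3 left 4 calls in subclone 3. On log2(TPM) without z-scores, between 3 and 8 of these calls were made in a comparison, and all called members kept their direction.

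Among subunit genes, the largest rise in each comparison was that of Atp6v0a4. Against the WT5 values given above, it had 1.54, 1.28, 1.37 and 1.23 TPM in subclone 1 and 0.97, 0.80, 0.97 and 0.81 TPM in subclone 2. It had 1.50, 1.24, 1.49 and 1.54 TPM in subclone 3 and 1.76, 1.56, 1.35 and 1.61 TPM in subclone 4. In subclone 5 it had 1.31, 1.25, 1.37 and 1.58 TPM. All 20 subclone libraries were above all 4 WT5 libraries, a shared rise to which the limit given above applies. The log2 differences from WT5 were 1.51 ± 0.089, 0.90 ± 0.095, 1.60 ± 0.095, 1.72 ± 0.095 and 1.53 ± 0.096 in subclones 1 to 5. The adjusted p-values (limma on z-scores) ran from 2.47e-05 to 9.14e-04. The libraries of subclones 1, 3, 4 and 5 were also above the polyclonal range of 0.47 to 0.97 TPM, and those of subclone 2 lay within it. The 3 expressed intercalated-cell markers did not share one order across the lines. Car2, the cytosolic carbonic anhydrase, had 27.4 ± 1.6 TPM in WT5 and means of 52.7, 36.4, 57.6, 57.6 and 40.7 TPM in subclones 1 to 5. Of WT5 and the subclones, WT5 was lowest and subclone 2 next for Car2, as for Atp6v0a4. Tfcp2l1 had 10.2 ± 0.59 TPM in WT5 and between 10.6 and 13.8 TPM by subclone means, highest in subclone 2. Car12 had 4.58 ± 0.32 TPM in WT5 and means of 5.27, 4.15, 4.46, 3.05 and 6.45 TPM in subclones 1 to 5. Slc26a4, a marker with means below 1 TPM, had 0.10 ± 0.051 TPM in WT5. Its means were 0.12, 0.25, 0.29, 0.625 and 0.155 TPM in subclones 1 to 5. The part of intercalated cells in the level of Atp6v0a4 was not tested. The other intercalated-cell forms did not pass in any subclone with the pseudocount of 0.1 (limma, adjusted p from 0.258 to 0.895).

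Atp6ap2 and Atp6v1c1 were higher than in WT5 in all 5 subclones on z-scores, as were Atp6v0c and Atp6v0d1. The limit on differences that all subclones share applies to these 4 genes too. Atp6ap2 had between 86.3 and 103 TPM in the 20 subclone libraries, all above the WT5 libraries. Its log2 differences were 0.44, 0.32, 0.38, 0.39 and 0.44 in subclones 1 to 5, each with an SE of at most 0.058. Atp6v1c1 had between 119 and 144 TPM in the subclone libraries, also without overlap with WT5, and log2 differences between 0.31 and 0.41. In subclone 3 its call was lost without WT5 replicate 1, 2 or 3 (limma, adjusted p up to 0.0119) and was not made without z-scores (adjusted p = 0.0117). Atp6v0c and Atp6v0d1 had log2 differences of at most 0.17 and 0.34. Without z-scores Atp6v0c passed only in subclone 1 (limma, adjusted p = 0.251, 0.344, 0.0980 and 0.157 in subclones 2 to 5), and its libraries overlapped with WT5 in subclones 2, 4 and 5. Atp6v0d1 did not pass without z-scores in subclones 2, 3 and 5 (limma, adjusted p = 0.0247, 0.0207 and 0.632), and its libraries overlapped with WT5 in subclone 5. In subclone 5 the call of Atp6v0d1 was lost when any of 7 libraries was left out (limma, adjusted p up to 0.0280), including each of the 4 WT5 libraries and subclone 5 replicates 2, 3 and 4. Atp6v1h passed in subclones 1, 2, 4 and 5, and Atp6v0a1 in subclones 1, 2 and 5. Without z-scores Atp6v1h did not pass in subclone 5 (limma, adjusted p = 0.109), nor did Atp6v0a1 in subclones 2 and 5 (adjusted p = 0.0438 and 0.195). In subclone 5 both calls were lost without any WT5 library or subclone 5 replicate 3 or 4, and that of Atp6v0a1 also without subclone 5 replicate 2 (limma, adjusted p up to 0.0308 and 0.0276). The call of Atp6v0a1 was lost in subclone 1 without WT5 replicate 2 or 4 (adjusted p up to 0.0113). In subclone 2 it was lost without WT5 replicate 2, 3 or 4 or subclone 2 replicate 1, 3 or 4 (adjusted p up to 0.0157). Tcirg1 was higher in subclones 1, 2, 4 and 5 and did not pass in subclone 3 (limma, adjusted p = 0.0896). Atp6v0a2, which was higher in WT5 than in polyclonal cells, did not pass in any subclone, with log2 differences from WT5 between -0.43 and -0.18. Atp6v0c-ps2 passed as higher in subclones 2, 4 and 5, and in subclone 2 it was the member with the largest rise, with 13.97, 8.37, 11.8 and 10.2 TPM and a log2 difference of 1.03 ± 0.18. That call was lost without WT5 replicate 2 (limma, adjusted p = 0.0102), and the call in subclone 4 without WT5 replicate 2 or 3 or subclone 4 replicate 3 or 4 (adjusted p up to 0.0133).

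Among members that passed, the largest fall in subclones 1, 2 and 3 was that of Atp6v0e2. It had 26.4, 22.5, 24.2 and 24.7 TPM in subclone 1, 25.5, 23.1, 26.2 and 26.2 TPM in subclone 2, and 26.6, 23.0, 23.9 and 25.03 TPM in subclone 3. Its log2 differences from WT5 were -0.35, -0.30 and -0.34, without overlap of libraries. In each of these comparisons the call was lost without WT5 replicate 1, 2 or 3 (limma, adjusted p up to 0.0253). It was also lost without subclone 1 replicate 3 or 4, without subclone 2 replicate 1, 2 or 4, and in subclone 3 without WT5 replicate 4 or subclone 3 replicate 1, 3 or 4. Among members that passed, the largest fall in subclone 4 was that of Atp6v1e1 and in subclone 5 that of Atp6v1d, which are described next. Some members that did not pass had larger z-score differences below 0. These were Atp6v1g2 in subclones 2, 4 and 5, at -0.15, -0.18 and -0.21 (limma, adjusted p = 0.146, 0.0592 and 0.0171), and Atp6v0a2 in subclone 3, at -0.11 (adjusted p = 0.0122).

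**Figure D3:**
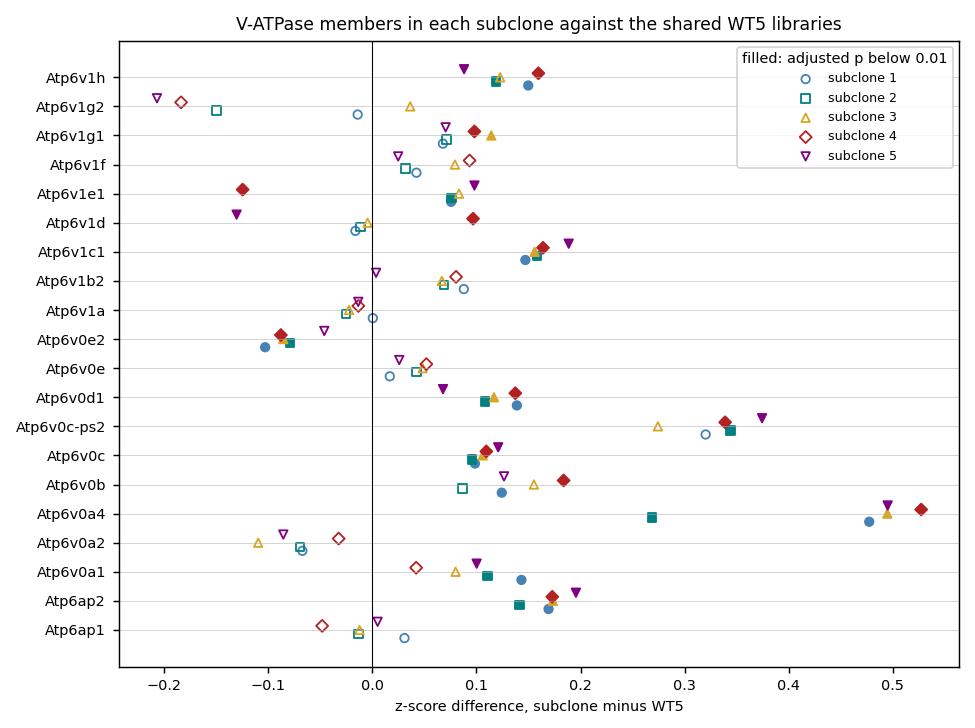
z-score difference of each subclone from WT5 for the 20 members tested, with 4 libraries a group. Filled symbols passed at adjusted p below 0.01 (limma). Atp6v0a4 lies farthest right in each subclone except subclone 2, where Atp6v0c-ps2 is larger, and the filled symbols farthest left are Atp6v1d of subclone 5 and Atp6v1e1 of subclone 4. Open symbols of Atp6v1g2, which did not pass, lie farther left in subclones 4 and 5.

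Differences among the subclones were tested with WT5 left out, by an F test over 14031 genes that were above 0 in each of the 20 subclone libraries. Of 21 members tested, 5 passed (limma, adjusted p below 0.01), and 24.6% of all genes did. Without subclone 5 replicate 2 or 3, 3 members passed. Between the lowest and the highest subclone mean, the median range was 0.26 on the log2 scale over the members and 0.29 over all genes. Atp6v1d, a subunit of the central shaft, differed most (F = 64.4, adjusted p = 4.06e-08). It had 79.0, 89.4, 85.3 and 95.4 TPM in subclone 5 and 137, 139.7, 144 and 141 TPM in subclone 4. Subclones 1, 2 and 3 lay between, from 102 to 123 TPM over their 12 libraries. Neither extreme overlapped with them. Against WT5, with 126, 123, 127 and 134 TPM, the log2 difference was -0.55 ± 0.072 in subclone 5 and 0.14 ± 0.040 in subclone 4, where the call against WT5 was not made without z-scores (limma, adjusted p = 0.0207).

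Atp6v1e1 followed (F = 34.4, limma adjusted p = 1.83e-06). It had 136, 143, 141 and 137 TPM in subclone 4 and between 188 and 236 TPM in the 16 libraries of the other subclones. Against WT5, with 194, 202, 208 and 208 TPM, the log2 difference in subclone 4 was -0.54 ± 0.038. Atp6v0a4 differed through subclone 2 (F = 15.0, limma adjusted p = 2.03e-04), whose libraries were all below those of the other subclones. Atp6v1b2 was lowest in subclone 5, with 71.0, 74.4, 76.1 and 82.6 TPM, and highest in subclone 1, with 97.8, 96.6, 91.4 and 95.5 TPM (F = 8.34, limma adjusted p = 0.00357). Its call was lost without subclone 5 replicate 2 or 3 (adjusted p between 0.0167 and 0.0198). Atp6v0d1 was also lowest in subclone 5, with 89.5, 103, 106 and 110.4 TPM, and highest in subclone 1, with 133, 130.1, 117 and 119.8 TPM (F = 7.42, limma adjusted p = 0.00582). That call was lost without any of 9 libraries, namely subclone 1 replicates 1 and 2, all of subclone 4 and subclone 5 replicates 1, 2 and 3, and it was not made without z-scores (adjusted p = 0.0226). Of the members that did not pass, Atp6v1c2 came nearest (limma, adjusted p = 0.0172), with 0.03, 0.07, 0.09 and 0.02 TPM in subclone 5 and 0.20, 0.32, 0.21 and 0.35 TPM in subclone 1. Tcirg1 did not pass (limma, adjusted p = 0.745).

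**Figure D4:**
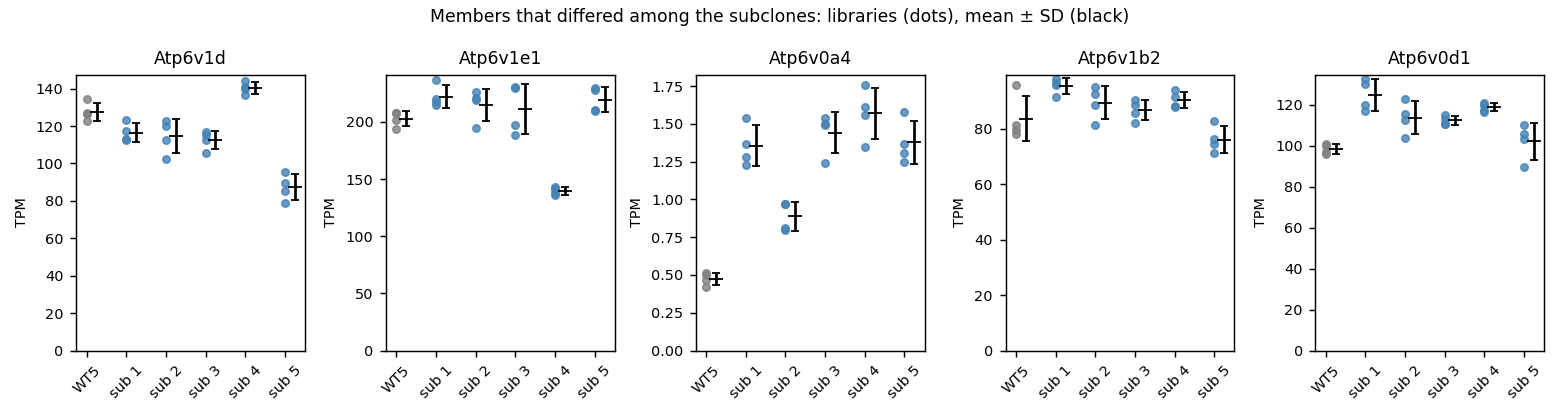
TPM of the 5 members that differed among the subclones, in WT5 (grey) and subclone (blue) libraries, with the mean ± SD of 4 libraries in black. Atp6v1d is lowest in subclone 5 and highest in subclone 4, and Atp6v1e1 is lowest in subclone 4, without overlap of libraries.

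For these 5 members the genes beside them were also examined, as the 5 nearest tested genes on each side on GRCm38. This was chosen after the values were seen and is a description. Atp6v1d lies at chr12:78840725-78861638. In subclone 5 all 10 of its neighbours were lower than the mean of the other subclones, by log2 differences from -0.42 to -0.27, and 9 of them passed the F test among subclones. Atp6v1d itself was at -0.47. The median was -0.36 over all 472 tested genes of chromosome 12 and -0.03 over all genes. Windows of 10 Mb with at least 20 genes had medians between -0.43 and -0.33 along the whole chromosome. In subclone 4 all 10 neighbours were higher, by 0.25 to 0.65, and Atp6v1d was at 0.39. Subclones 4 and 5 are each part of the mean that the other is set against, which widens both sets of differences. The F test is over all 5 subclones and is the same for both. Chromosome 12 had a median of 0.38 in subclone 4. Its other member, Atp6v1c2, was at -1.97 in subclone 5 and at -0.55 in subclone 4, on values below 0.4 TPM.

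Atp6v1e1 lies at chr6:120794305-120822793. In subclone 4 it was at -0.64 against the mean of the other subclones, 9 of its 10 neighbours were lower and 8 passed the F test, with a median of -0.49. Windows of 10 Mb with at least 20 genes, from 50 Mb before to 10 Mb after its start, had medians between -0.60 and -0.51, and those from 120 to 100 Mb before it had medians of -0.55 and -0.53. From 10 to 30 Mb after the start the medians were 0.04 and 0.02, and from 70 to 60 Mb before it the median was 0.34. From 100 to 70 Mb before the start they were 0.007, -0.06 and 0.04. The median over all 662 tested genes of chromosome 6 was -0.32. For the other members tested on chromosome 6, the differences in subclone 4 were 0.11 for Atp6v1f, 0.34 for Atp6v0a4, 0.06 for Atp6v0c-ps2 and -0.02 for Atp6v0e2. Atp6v1b1, at chr6:83742990-83758855, was at 0 in all 4 libraries of subclone 4, and Atp6v1fnb in 3 of them, so neither was compared.

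For the remaining 3 members, fewer neighbours differed in the direction of the member. Atp6v0a4 was at -0.69 in subclone 2, where 1 of its 10 neighbours was lower and their median was 0.13. Atp6v1b2 and Atp6v0d1, both on chromosome 8, were at -0.25 and -0.20 in subclone 5, where their neighbours had medians of 0.01 and -0.11 and the chromosome -0.05. Of their 10 neighbours, 4 and 7 were lower. Those of Atp6v0d1 ranged from -0.58 to 0.16, and Hsd11b2, directly beside it, was at -0.39 and passed the F test. Of 10 neighbours, 3, 2 and 1 passed the F test for Atp6v0a4, Atp6v1b2 and Atp6v0d1. The part of the chromosome-wide values in the differences of Atp6v1d and Atp6v1e1 was not tested.

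**Figure D5:**
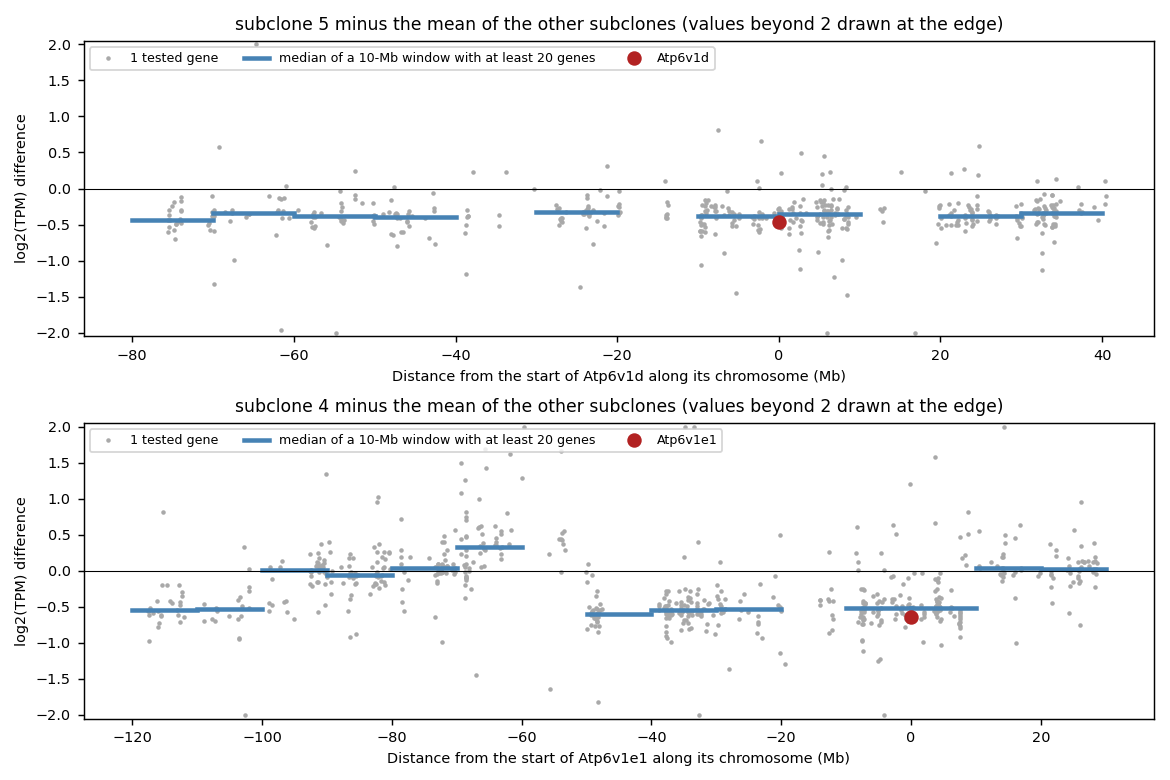
log2(TPM) difference of tested genes from the mean of the other subclones, by distance in Mb from the start of Atp6v1d in subclone 5 (top) and of Atp6v1e1 in subclone 4 (bottom). Grey dots are genes, blue lines are medians of 10-Mb windows with at least 20 genes, and the red dot is the member. The blue lines lie between -0.43 and -0.33 along all of the upper plot and between -0.60 and 0.34 in the lower one.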

How the data were processed

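The 28 mIMCD-3 RNA sequencing libraries are in 2 tables, one for polyclonal WT with WT5 and one for the subclones, which were joined here by gene identifier. The authors deposited TPM, from reads aligned to GRCm38 with STAR 2.7.3a and quantified with RSEM 1.3.1 (CASAVA 1.8 is also named in the submitters' processing notes). The values have 2 decimals, depth is unknown, and 0.01 is the lowest above 0. Groups were taken from the labels.

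Each library's log2(TPM), with no pseudocount added, was centred and scaled to z-scores over genes above 0 in every library compared, or in all WT5 and subclone libraries for subclones against WT5. Groups were compared with two-sided tests in limma 3.58.1 (R 4.3.3), with only the groups compared in the fit and Benjamini-Hochberg adjustment over all genes tested. A member was called at adjusted p below 0.01. The study's unequal-variance test and its z-score size above 1 were alternatives, along with others given in the closing section. On simulated data for 2 groups of 4 with 13723 genes, 74.5% of genes changed by 1 on the log2 scale were recovered (35.5% at 0.5, 94.5% at 3). For 5 groups of 4 with 14031 genes, these shares were 82.5%, 44.5% and 97%. In each simulation 200 genes were changed, and with 5 groups only a single group was changed. A far larger share of genes passed in the real data, so these shares do not measure the power of the tests reported.

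Values in every library are given for the intercalated-cell forms and their ubiquitous paralogs. They are also given for up to 5 called members with the largest rise and the largest fall without overlap of libraries between WT5 and polyclonal cells. Among the subclones they are given for the 5 called members with the largest F, and in each subclone against WT5 for the largest rise and fall. From each gene list, up to 3 called genes in each direction were named, and Tcirg1 is named with the a subunits. The members, lists and roles were chosen with earlier results of these data known, and other genes were named after their values were seen. Positions and shared stretches came from GENCODE M21 on GRCm38, and promoters from RefSeq. Python 3.11.15 was used with pandas 2.3.3, numpy 2.4.6 and matplotlib 3.10.9.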

Additional observations from a re-analysis of the deposited data

Results flagged for a closer look

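Of 128 groups of 4 libraries of the 20 named genes that were not all equal, 5 had a library apart by Dixon's test. Chance flags about 1 in 20, a rate that does not hold where the other libraries are tied at 0. Atp6v1b1 had 0.07 TPM in WT5 replicate 1 and 0.02 TPM in subclone 1 replicate 3, with the other libraries of each group at 0. Atp6v0d2 had 0.03 TPM in subclone 5 replicate 2, with the others at 0. In groups with all others at 0, a single value above 0 is always flagged. Atp6v0a4 was lowest in subclone 3 replicate 2, at 1.24 TPM, and Tcirg1 was highest in WT5 replicate 2, at 73.6 TPM.

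The difference between subclones itself passed the F test of limma for Atp6v1d (adjusted p = 4.06e-08), Atp6v1e1 (adjusted p = 1.83e-06), Atp6v0a4 (adjusted p = 2.03e-04), Atp6v1b2 (adjusted p = 0.00357) and Atp6v0d1 (adjusted p = 0.00582).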

How the results depend on the processing

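Across the 70 calls of a member in a comparison, 982 of the values under alternatives stayed past the threshold, 280 did not and 0 changed sign. With the added z-score size above 1 (limma), 1 member stayed called between WT5 and polyclonal cells and 0 in each other comparison. At an unadjusted p below 0.05 there were 18 members between WT5 and polyclonal cells, 14, 14, 13, 17 and 15 in subclones 1 to 5 and 9 among the subclones. Restricting to genes that share no stretch of 50 bases, chosen after seeing the data, left 10 called members between WT5 and polyclonal cells, 6, 6, 3, 6 and 5 in subclones 1 to 5 and 3 among the subclones. Fewer members are tested there, and of the calls whose members still were, 38 stayed and 3 did not. The unequal-variance test gave 16 between WT5 and polyclonal cells, 6, 6, 4, 9 and 7 in subclones 1 to 5 and 3 among the subclones. Without z-scores there were 6, 4 and 5 in subclones 2, 3 and 5. With a pseudocount of 0.1 there were 2 and 6 in subclones 3 and 5 and 3 among the subclones, and with all libraries in 1 fit there were 13 in subclone 3. The cause was not tested. Values of a few hundredths of a TPM have no known number of reads behind them. Leaving out single libraries gave 14 to 16 calls between WT5 and polyclonal cells, 6 to 9, 7 to 10, 4 to 6, 9 to 12 and 7 to 10 in subclones 1 to 5 and 3 to 6 among the subclones.

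Replicate numbers did not pair libraries. Deviations of libraries with the same number correlated at -0.04 to 0.04 in the comparisons with WT5. Among the subclones they correlated at -0.219 to 0.105, and 1 of 40 pairs was above 0.1. With the replicate block, 13 members were called between WT5 and polyclonal cells, 5, 4, 1, 9 and 4 in subclones 1 to 5 and 3 among the subclones.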
